A study of Homo sapiens with 6 samples.

Results

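The messenger RNA of 10 amino acid transporter genes was followed by sequencing in human gastric cancer cells carrying a NINJ1 lentivirus or a negative control. The genes were chosen by name: SLC7A5, SLC3A2, SLC7A11, SLC43A1, SLC1A5, SLC1A4, SLC38A1, SLC38A2, SLC7A1 and SLC6A9. They are 10 of the 51103 genes in each deposited table, and all 10 passed the filter on low counts that left 17617 genes for testing. Both cell lines are established: AGS came from a gastric adenocarcinoma and HGC-27 from an undifferentiated gastric carcinoma. NINJ1 encodes ninjurin-1, an adhesion protein of the cell surface that also takes part in rupture of the plasma membrane during lytic cell death. The 4 groups were AGS with the negative control (1 library), AGS labelled NINJ1 (2 libraries), HGC-27 with the negative control (1 library) and HGC-27 with NINJ1 (2 libraries), each harvested after 48 hours. Whether transduced cells were a mixed population or a clone, and whether replicates were separate cultures, is not given in the sources used here. The p-values therefore measure only the spread between these libraries, which may be technical.

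For both NINJ1 replicate 2 libraries the sample title names one line and the file name the other. Lines are taken from the file names here, and values under the titles are given where they change a result. LCP1, an actin-bundling protein that separated the undisputed libraries of the 2 lines, was at 160 to 196 FPKM (fragments per kilobase of gene, scaled to the library total) in the 3 libraries named HGC-27 and at 0.0 to 0.119 in the 3 named AGS. Total counts were between 12619684 and 18175697 a library. NINJ1 itself was at 10.9 FPKM in the AGS control, against 7.81 and 6.29 FPKM in the libraries of that line labelled NINJ1. Its level was thus lower under the label in AGS, and those 2 libraries are called labelled NINJ1. In HGC-27 the gene was at 1.48 FPKM in the control and 6.88 and 7.53 FPKM with NINJ1, 3.71-fold higher on scaled counts and 1.50-fold higher after the GC correction described below (edgeR adjusted p = 0.0334). That rise rests on the 1 HGC-27 control, with 71 NINJ1 counts. Between the NINJ1 libraries of the 2 lines the gene did not pass (log2 -0.04, edgeR adjusted p = 0.877). The wording with NINJ1 in HGC-27 likewise follows the label. The HGC-27 control stood apart from the other 5 libraries: genes with over 60% GC held 2.31% of its counts, against 9.25% to 11.3% elsewhere. It also had fewer genes with a count, 19371 against 22839 to 23396. Differences of the NINJ1 gene, the members and named list genes from that control are therefore given again with a correction for GC content. The mitochondrial and marker values below are uncorrected. Mitochondrial genes held 6.50% of counts in the HGC-27 control against 3.75% and 3.39% with NINJ1, and 5.00% in the AGS control against 3.19% and 2.78%. Of 8 leukocyte markers, CD3E was at 0 in all 6 libraries, and LCP1 and SRGN made up most of a summed 281 to 720 FPKM in HGC-27, against 0.45 to 1.74 in AGS. SRGN, a proteoglycan of secretory granules, was at 524 FPKM in the HGC-27 control and 120.1 and 127 FPKM with NINJ1. Of 10 epithelial markers, 4 to 6 had an FPKM of at least 1 in each library (summed 165 to 344 FPKM), while CDH1, the epithelial cadherin, stayed between 0.0 and 0.454 FPKM in both lines. KRT7, an epithelial keratin, was at 59.3 FPKM in the HGC-27 control and 187 and 186 FPKM with NINJ1. The part of these markers and of the mitochondrial share in the transporter values was not tested.

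Amino acids cross the plasma membrane through carriers of several families, and many carriers exchange an amino acid inside the cell for another outside. SLC3A2 is the heavy chain (CD98) that carries light chains such as SLC7A5 (LAT1, which takes up leucine and other large neutral amino acids) and SLC7A11 (xCT, which takes up cystine in exchange for glutamate) to the membrane. Leucine uptake feeds the mTORC1 kinase complex, cystine feeds glutathione synthesis, and transcription factor ATF4 raises many transporter genes when amino acids run short. Many tumours express LAT1, xCT and the glutamine carrier SLC1A5 highly.

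All 10 are protein-coding genes (GRCh38, GENCODE 29). The CD98 chains are SLC3A2 (ENSG00000168003, chr11:62856102-62888875, plus strand), SLC7A5 (ENSG00000103257, chr16:87830023-87869488, minus strand) and SLC7A11 (ENSG00000151012, chr4:138164097-138242349, minus strand). SLC1A5 (ENSG00000105281) is at chr19:46774883-46788594 on the minus strand and SLC1A4 (ENSG00000115902) at chr2:64988477-65023865 on the plus strand. SLC38A1 (ENSG00000111371, chr12:46183063-46270017) and SLC38A2 (ENSG00000134294, chr12:46358189-46372867) are both on the minus strand. SLC7A1 (ENSG00000139514, chr13:29509410-29595688), SLC6A9 (ENSG00000196517, chr1:43991500-44031467) and SLC43A1 (ENSG00000149150, chr11:57484534-57515786) are on the minus strand.

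The coding sequences of these genes differ widely in GC content, which matters because the HGC-27 control was depleted of GC-rich transcripts. The first 60 coding bases of 4 members are shown as examples, 5′ to 3′, with G and C in capitals; they were read from the GRCh38 genome by GENCODE 29 annotation. SLC7A5 (chr16:87869363-87869422, minus strand, exon 1) is 78.33% GC here, SLC1A5 (chr19:46787906-46787965, minus strand, exon 1) 70%, SLC38A2 (chr12:46371234-46371293, minus strand, exon 2) 50% and SLC7A11 (chr4:138242010-138242069, minus strand, exon 1) 48.33%.
SLC7A5: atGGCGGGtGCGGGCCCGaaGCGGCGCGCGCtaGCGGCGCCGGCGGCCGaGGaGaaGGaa
SLC1A5: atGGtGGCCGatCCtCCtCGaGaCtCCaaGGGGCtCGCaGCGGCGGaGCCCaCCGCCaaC
SLC38A2: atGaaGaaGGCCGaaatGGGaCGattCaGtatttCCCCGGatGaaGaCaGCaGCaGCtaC
SLC7A11: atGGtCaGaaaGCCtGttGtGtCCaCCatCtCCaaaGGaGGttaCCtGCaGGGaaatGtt
Over the longest transcript, GC content was 61.3% for SLC1A5, 61.1% for SLC7A5, 59.6% for SLC6A9, 58.2% for SLC43A1, 57.4% for SLC3A2 and 52.7% for SLC7A1. It was 46.5% for SLC1A4, 41.3% for SLC38A1, 38.1% for SLC38A2 and 35.4% for SLC7A11.

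The order of mRNA levels per length was alike in 5 of the 6 libraries. SLC7A5 was the most abundant member in those 5, at 299 to 378 FPKM, followed by SLC38A2 at 159 to 198 FPKM. SLC38A1 came next in each of the 5, at 101 to 139 FPKM. SLC1A5 and SLC3A2 followed, between 72.0 and 124 FPKM, and exchanged places between libraries. SLC7A1 and SLC7A11 lay between 19.8 and 47.8 FPKM, and SLC1A4, SLC6A9 and SLC43A1 between 2.25 and 15.5 FPKM. In the HGC-27 control the first place belonged to SLC38A1 (175 FPKM), then SLC38A2 (163 FPKM), and SLC7A5 came after both at 53.1 FPKM. The summed FPKM of the 10 members was 468 there and 848 to 960 in the other 5 libraries.

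**Figure D1:**
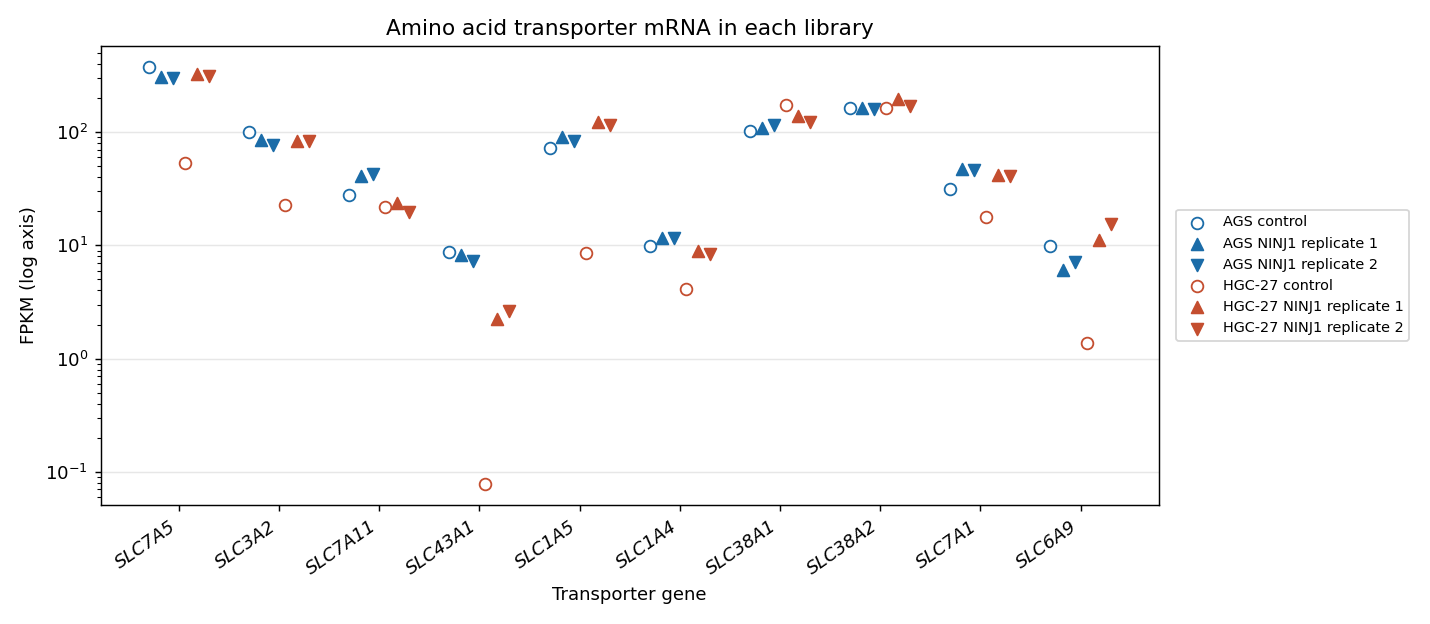
FPKM (log axis) of the 10 transporter genes, with 1 point per library; open circles are controls and filled triangles NINJ1 libraries, blue for AGS and red for HGC-27. The HGC-27 control is the lowest point for 7 genes, SLC7A5 among them at 53.1 FPKM, and the highest for SLC38A1 at 175 FPKM.

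In AGS, 5 of the 10 members passed the test of NINJ1-labelled libraries against the control, none of them by more than 1.53-fold. SLC7A11, the cystine carrier, and SLC7A1, a carrier of arginine and lysine, rose 1.45-fold and 1.43-fold. SLC7A5, its heavy chain SLC3A2 and the glycine carrier SLC6A9 fell 1.29-fold, 1.29-fold and 1.53-fold. The 5 called members compare with 15.0% of all tested genes called in this comparison (5.73% higher and 9.3% lower). The median log2 change was 0.01 over the 10 members and 0.00 over all tested genes. The test was edgeR's quasi-likelihood F test on counts with Benjamini-Hochberg adjustment over all tested genes, and it takes the spread from the pairs of NINJ1 libraries because each line has 1 control. After the GC correction SLC7A11, SLC7A1 and SLC1A5 were higher and SLC6A9 lower, against 18.7% of all tested genes called (8.5% higher and 10.2% lower). None of the 10 passed when AGS NINJ1 replicate 1 was left out or when the titles set the lines (0 of all genes passed with edgeR under the titles, and 595 had an unadjusted p under 0.05). Only SLC6A9 passed when AGS NINJ1 replicate 2 was left out (log2 -0.74, edgeR adjusted p = 0.0327).

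SLC7A5 was at 378 FPKM in the AGS control, and the NINJ1-labelled libraries had 308 and 299 FPKM. Both labelled libraries lay below the control and within 0.02 of each other on the log2 CPM scale. The change was log2 -0.37 (SE 0.12, edgeR adjusted p = 0.0336), and with the GC correction it was -0.17 and no longer passed (edgeR adjusted p = 0.251). SLC3A2 was at 100.3 FPKM in the AGS control and 84.6 and 77.2 FPKM in those labelled NINJ1. It changed by log2 -0.36 (SE 0.12, edgeR adjusted p = 0.0416), and by -0.25 with the GC correction (edgeR adjusted p = 0.0737). The ratio of SLC7A5 to SLC3A2 FPKM was 3.77 in the control and 3.64 and 3.87 in the labelled libraries. SLC7A11, the other light chain, moved the opposite way, from 27.9 FPKM in the control to 41.4 and 42.4 FPKM. Its change was log2 0.53 (SE 0.13, edgeR adjusted p = 0.00498) and 0.42 after it was corrected for GC (edgeR adjusted p = 0.00324). The ratio of SLC7A11 to SLC3A2 FPKM was 0.278 in the AGS control, and in the labelled libraries it was 0.489 and 0.549.

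**Figure D2:**
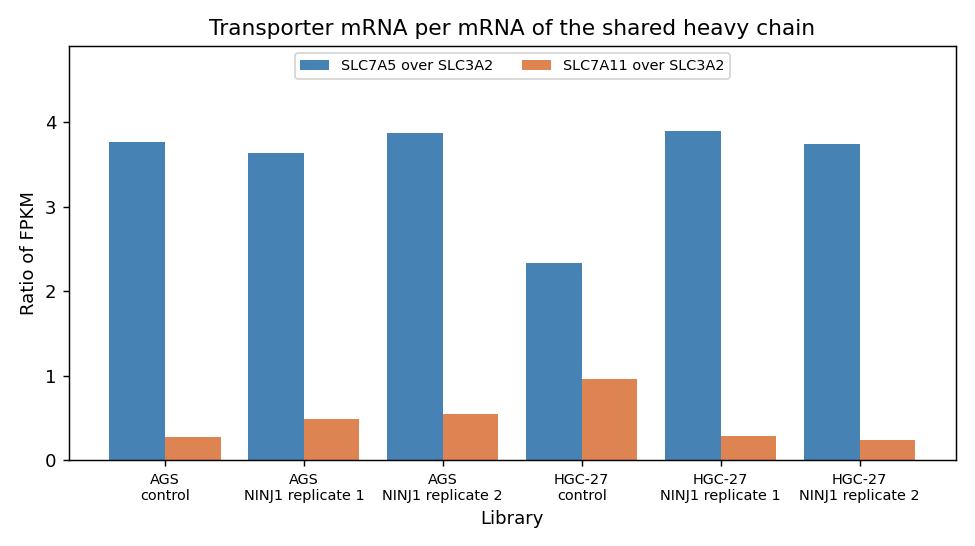
Ratio of SLC7A5 (blue) and SLC7A11 (orange) FPKM to that of their shared heavy chain SLC3A2, with 1 pair of bars per library and no error, since each bar is 1 library. SLC7A5 over SLC3A2 is 3.64 to 3.90 in 5 libraries and 2.33 in the HGC-27 control; SLC7A11 over SLC3A2 is 0.278 in the AGS control, 0.489 and 0.549 in the AGS libraries labelled NINJ1, and 0.964 in the HGC-27 control.

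The FPKM ratios depend on the length used for each gene. The deposited FPKM used 5178 bases for SLC3A2, whose longest transcript has 2222 bases. With longest-transcript lengths SLC7A5 over SLC3A2 was 1.63 to 1.75 in 5 libraries and 1.05 in the HGC-27 control. The order of the libraries in each ratio stays as it was, because a length is a constant factor.

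Among the glutamine and small neutral amino acid carriers, none passed in AGS. SLC1A5 (ASCT2, a sodium-dependent exchanger that takes up glutamine) was at 72.0 FPKM in the AGS control and 90.3 and 83.3 FPKM in those labelled NINJ1 (log2 0.22, SE 0.13, edgeR adjusted p = 0.274). Corrected for GC content its change was 0.42 and passed (edgeR adjusted p = 0.00809). SLC1A4 (ASCT1, an exchanger of alanine, serine and cysteine) was at 9.81 FPKM in the control and 11.6 and 11.7 FPKM in the labelled libraries. SLC38A1 (SNAT1, a sodium-coupled glutamine importer) was at 101 FPKM and at 109 and 115 FPKM, and its relative SLC38A2 (SNAT2, induced when amino acids are scarce) at 162 FPKM and at 164 and 159 FPKM. The log2 changes of these 3 genes were 0.20, 0.09 and -0.06, with edgeR adjusted p from 0.39 to 0.795. SLC38A2 in both labelled libraries lay within 4 FPKM of the control.

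SLC7A1 (CAT1) was at 31.7 FPKM in the AGS control and at 47.8 and 46.5 FPKM in those labelled NINJ1. Its change of log2 0.52 (SE 0.13, edgeR adjusted p = 0.00454) was 0.54 with the GC correction (edgeR adjusted p = 0.000323), and it was also the 1 member that passed with limma on log2(FPKM + 1) (log2 0.56, limma adjusted p = 0.0357). SLC6A9 (GLYT1, a sodium and chloride-coupled glycine carrier) was at 9.80 FPKM in the AGS control and 6.11 and 7.17 FPKM in those labelled NINJ1. It changed by log2 -0.61 (SE 0.17, edgeR adjusted p = 0.0148), and by -0.45 with the GC correction (edgeR adjusted p = 0.0341). DESeq2 gave -0.63 and did not call it (adjusted p = 0.0943). SLC43A1 (LAT3, a carrier of leucine and other large neutral amino acids that needs no heavy chain) was at 8.81 FPKM and at 8.14 and 7.32 FPKM (log2 -0.24, SE 0.19, edgeR adjusted p = 0.433).

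In HGC-27, 7 of the 10 members were higher with NINJ1 and 2 were lower before correction for GC content. The largest were SLC43A1, SLC1A5, SLC6A9 and SLC7A5, at 23.4-fold, 10.6-fold, 7.44-fold and 4.57-fold. SLC38A1 and SLC7A11 were 1.75-fold and 1.33-fold lower. After the GC correction 7 members were higher and none lower, and SLC43A1, SLC1A5 and SLC6A9 were 8.53-fold, 2.71-fold and 2.26-fold higher. The 9 members called compare with 63.0% of all tested genes called in this comparison (34.0% higher and 29.1% lower), and the 7 with the GC correction with 49.2% (22.8% higher and 26.4% lower). The median log2 change of the members was 1.15 against 0.12 over all tested genes, and 0.40 against 0.00 with the GC correction. When the titles set the lines 3 members passed: SLC7A5, SLC3A2 and SLC1A5 (log2 2.16, 1.42 and 3.20), against 12.2% of all tested genes.

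**Figure D3:**
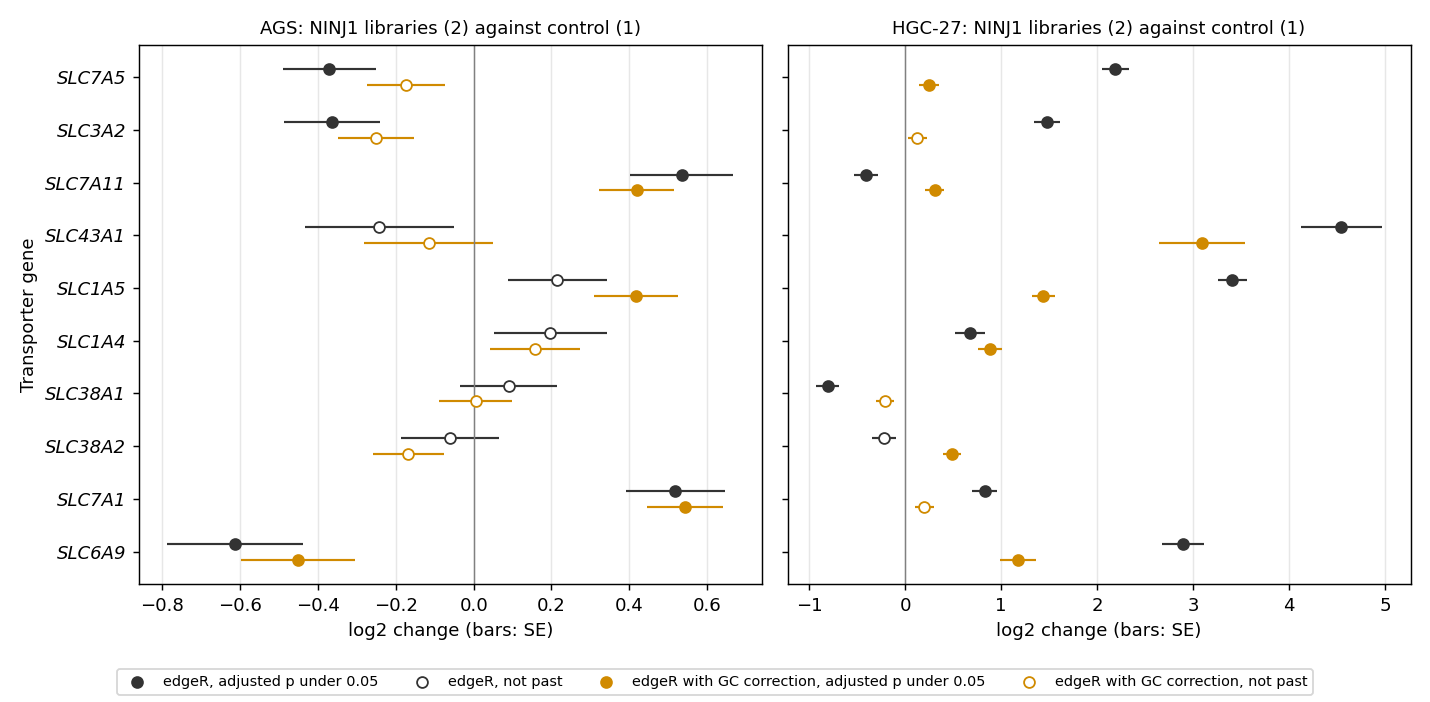
Log2 change (SE as bars) of NINJ1 libraries against the control in AGS (left) and HGC-27 (right), without (black) and with (orange) GC correction; filled points passed an edgeR adjusted p of 0.05, and the horizontal scales differ. In HGC-27 the correction moves SLC7A5 from 2.19 to 0.25 and turns SLC7A11 from -0.41 to 0.31, while SLC43A1 stays above 3.

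SLC7A5 was at 53.1 FPKM in the HGC-27 control and at 327 and 311 FPKM with NINJ1. The NINJ1 libraries lay within the range of the 3 AGS libraries and the control alone was low. The change was log2 2.19 (SE 0.14, edgeR adjusted p = 3.32e-15), and with the GC correction 0.25 (SE 0.10, edgeR adjusted p = 0.0493). Tested genes with 60% to 65% GC, the class of SLC7A5, still had a median of 0.26 after the correction. SLC3A2 was at 22.8 FPKM in the control and 83.8 and 83.3 FPKM with NINJ1. It changed by log2 1.48 (SE 0.14, edgeR adjusted p = 2.21e-11), and by 0.13 with the GC correction, where it did not pass (edgeR adjusted p = 0.308). SLC7A11 was at 22.0 FPKM in the control and at 23.7 and 19.8 FPKM with NINJ1, so the control lay between the NINJ1 libraries on the FPKM scale. On counts scaled by TMM its change was log2 -0.41 (SE 0.13, edgeR adjusted p = 0.00643). It turned to 0.31 with the GC correction (edgeR adjusted p = 0.0108) and was -0.02 with limma on log2(FPKM + 1) (limma adjusted p = 0.923). No direction for SLC7A11 in HGC-27 therefore held over these scalings.

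SLC1A5 was at 8.57 FPKM in the HGC-27 control and at 124 and 116 FPKM with NINJ1, the highest values of any library. The change was log2 3.41 (SE 0.16, edgeR adjusted p = 4.38e-18), and 1.44 with the GC correction (SE 0.12, edgeR adjusted p = 9.42e-10). SLC1A4 was at 4.13 FPKM and at 8.96 and 8.40 FPKM. It is one of the members whose change did not shrink with the correction: log2 0.67 (SE 0.15, edgeR adjusted p = 0.000252) before and 0.89 after (SE 0.12, edgeR adjusted p = 1.99e-06). Every corrected SLC1A4 value here and below rests on the 46.5% GC of its longest transcript, while its main coding transcript is 52.6% GC. Uncorrected class medians were -0.15 at 45% to 50% GC and 0.56 at 50% to 55%, so the corrected size depends on that choice. A correction on the coding transcript was not run. The ratio of SLC1A5 to SLC1A4 FPKM was 2.08 in the HGC-27 control, 13.8 in both HGC-27 NINJ1 libraries and 7.13 to 7.75 in the AGS libraries.

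SLC38A1 was at 175 FPKM in the HGC-27 control and at 139 and 124 FPKM with NINJ1, below the control in both. The change was log2 -0.81 (SE 0.12, edgeR adjusted p = 5.84e-07) and -0.21 with the GC correction, where it did not pass (edgeR adjusted p = 0.0566). SLC38A2 was at 163 FPKM in the control and at 198 and 171 FPKM with NINJ1. Its change was log2 -0.22 on TMM-scaled counts (SE 0.12, edgeR adjusted p = 0.122) and 0.48 with the GC correction (SE 0.09, edgeR adjusted p = 0.000137), so its sign depended on the correction. SLC38A2 had the narrowest range of the 10 members over the 6 libraries, with its highest FPKM 1.25 times its lowest.

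SLC7A1 was at 17.8 FPKM in the HGC-27 control and at 42.1 and 40.9 FPKM with NINJ1 (log2 0.83, SE 0.13, edgeR adjusted p = 1.29e-06). The corrected value was 0.20 and did not pass (edgeR adjusted p = 0.0944). SLC6A9 was at 1.37 FPKM in the control and at 11.2 and 15.5 FPKM with NINJ1. Its change was log2 2.90 (SE 0.22, edgeR adjusted p = 2.13e-13) and 1.18 with the GC correction (SE 0.18, edgeR adjusted p = 9.74e-06). The HGC-27 NINJ1 libraries differed by 0.48 on the log2 CPM scale, the widest gap between replicates of any member. SLC43A1 had 5 counts in the HGC-27 control (95% Poisson interval 1.62 to 11.7, counting error only) and 115 and 141 counts with NINJ1, or 0.078, 2.25 and 2.65 FPKM. Its change was log2 4.55 (SE 0.43, edgeR adjusted p = 3.58e-11) and 3.09 with the GC correction (SE 0.45, edgeR adjusted p = 3.33e-06), and the size of both rests on those 5 counts.

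Transporter changes in HGC-27 followed the GC content of the transcripts over much of their range. Genes with 60% to 65% GC had a median log2 change of 2.35 (interquartile range 1.45 to 3.61, 1854 genes), and SLC7A5 (2.19) and SLC1A5 (3.41) lay inside it. Genes with 55% to 60% GC had a median of 1.43 (0.60 to 2.49, 2524 genes), with SLC3A2 (1.48) inside and SLC6A9 (2.90) and SLC43A1 (4.55) above. SLC7A1 (0.83) lay inside the range of genes with 50% to 55% GC, whose median was 0.56. SLC1A4 (0.67) lay above that of genes with 45% to 50% GC (-0.76 to 0.51), but its main coding transcript is 52.6% GC and would lie inside the next class (-0.11 to 1.47). Genes with 35% to 40% GC had a median of -0.77 (-1.15 to -0.29), with SLC7A11 (-0.41) inside and SLC38A2 (-0.22) above, and SLC38A1 (-0.81) lay inside the class above it. In all, 6 members lay inside the interquartile range of their class and 4 above. Of the genes of any class 50% lie inside by definition, so the count of 6 is a description only. The GC correction shifts a member and its class together, so its place within the class is largely set beforehand (6 inside and 4 above again). Genes with 60% to 65% GC still had a median of 0.26 after the correction (interquartile range -0.61 to 1.66), with SLC7A5 at 0.25 and SLC1A5 at 1.44. Above 65% GC the corrected median was 0.77.

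**Figure D4:**
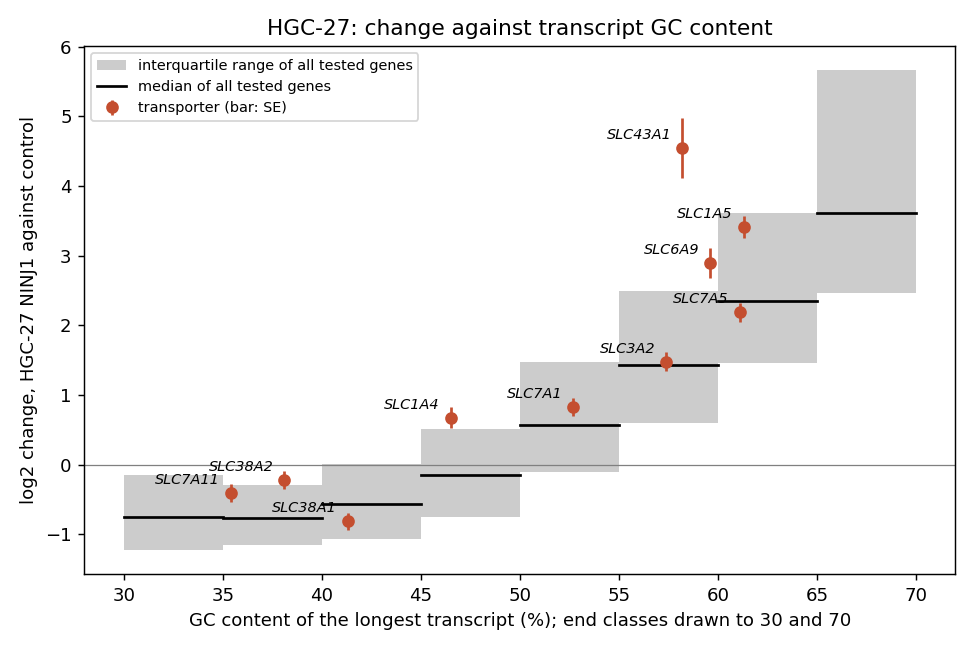
Log2 change in HGC-27 (NINJ1 against control) plotted against the GC content of the longest transcript in percent; red points are the 10 transporters with SE, black lines the median and grey boxes the interquartile range of all tested genes in each GC class. SLC7A5 (2.19) and SLC3A2 (1.48) sit near the medians of their classes (2.35 and 1.43), and SLC43A1 (4.55) and SLC6A9 (2.90) sit above the box.

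In AGS the same classes were flatter, with medians from 0.12 (35% to 40% GC) to -0.21 (60% to 65% GC). SLC7A11 (0.53), SLC7A1 (0.52) and SLC1A5 (0.22) lay above the interquartile range of their classes, SLC6A9 (-0.61) lay below, and the other 6 lay inside. Here too the share of a class that lies inside is fixed by definition. SLC7A5 (-0.37) was inside its class range of -0.62 to 0.14.

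Whether the NINJ1 change differed between the lines was tested as an interaction, and 7 of the 10 members passed, against 54.2% of all tested genes (23.9% higher and 30.2% lower). AGS minus HGC-27 was log2 -4.79 for SLC43A1, -3.51 for SLC6A9, -3.20 for SLC1A5, -2.56 for SLC7A5 and -1.84 for SLC3A2, and 0.94 for SLC7A11 and 0.90 for SLC38A1 (edgeR adjusted p from 3.16e-15 to 5.88e-05). After the GC correction 7 members passed, all of them lower, against 35.3% of all tested genes (18.9% higher and 16.4% lower). Of these 7, 5 had also passed before. The 5 were SLC43A1, SLC6A9, SLC1A5, SLC7A5 and SLC3A2, at -3.21, -1.63, -1.02, -0.42 and -0.38. SLC1A4 (-0.73) and SLC38A2 (-0.65) joined them, and SLC7A11 (0.11) and SLC38A1 (0.22) did not pass. When the titles set the lines, edgeR called 0 members and 0 of all genes, with 4459 genes at an unadjusted p under 0.05. Both lines' controls enter this contrast, so it carries the GC dependence of the HGC-27 control. After the GC correction genes with 60% to 65% GC still had a median of -0.29 here, where SLC7A5 was at -0.42 and SLC1A5 at -1.02.

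The comparison of AGS with HGC-27 within the NINJ1 libraries uses no control in its contrast, and here 5 of 10 members differed, against 40.2% of all tested genes (20.2% higher and 20.0% lower in AGS). SLC43A1, SLC7A11 and SLC1A4 were higher in AGS, by log2 1.65 (SE 0.17), 0.94 (SE 0.11) and 0.42 (SE 0.12). In FPKM these were 8.14 and 7.32 against 2.25 and 2.65 for SLC43A1, 41.4 and 42.4 against 23.7 and 19.8 for SLC7A11, and 11.6 and 11.7 against 8.96 and 8.40 for SLC1A4. SLC6A9 and SLC1A5 were lower in AGS, by log2 -1.01 (SE 0.14) and -0.47 (SE 0.10). For these 5 genes the edgeR adjusted p ranged from 1.5e-09 to 0.00401. SLC7A5 (-0.08, SE 0.10) and SLC3A2 (-0.05, SE 0.10) did not pass, with edgeR adjusted p of 0.578 and 0.727.

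Of the 10 members 8 passed there after the GC correction, against 43.8% of all tested genes (21.3% higher and 22.6% lower): SLC7A1 (0.20) joined the higher and SLC38A1 (-0.31) and SLC38A2 (-0.31) the lower. Leaving out AGS NINJ1 replicate 2 ended the calls of SLC1A5 (edgeR adjusted p = 0.0552) and SLC1A4 (edgeR adjusted p = 0.0875). Leaving out AGS NINJ1 replicate 1 ended that of SLC1A4 alone (edgeR adjusted p = 0.0656). With the titles setting the lines edgeR called 0 members and 0 of all genes, with 19 genes at an unadjusted p under 0.05. Line and any other difference between these libraries cannot be told apart, and in bulk RNA fewer expressing cells and less RNA per cell cannot be told apart.

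**Figure D5:**
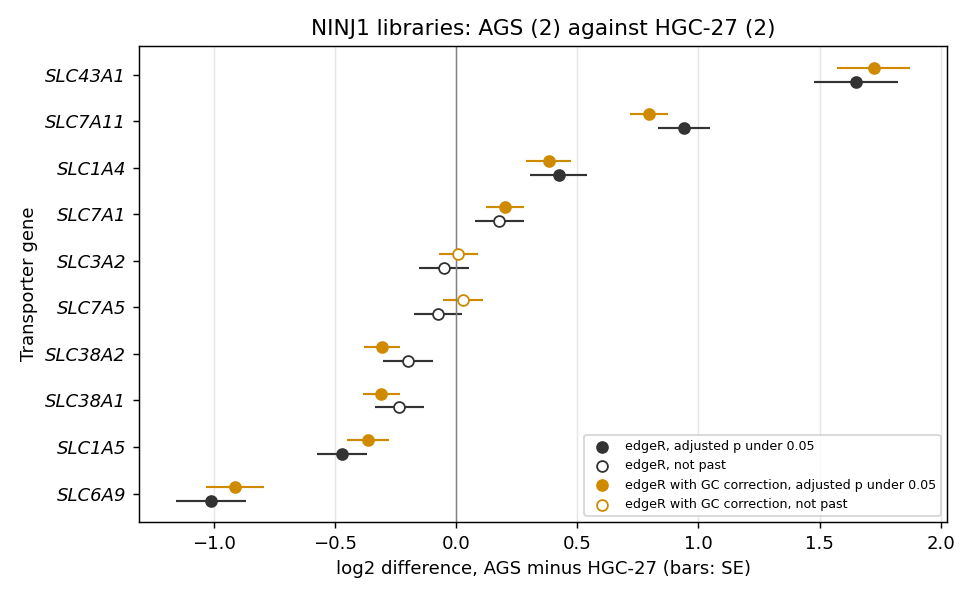
Log2 difference (AGS minus HGC-27, SE as bars) between the 2 AGS and 2 HGC-27 NINJ1 libraries, without (black) and with (orange) GC correction; filled points passed an edgeR adjusted p of 0.05. SLC43A1 (1.65) and SLC7A11 (0.94) lie to the right, SLC6A9 (-1.01) and SLC1A5 (-0.47) to the left, and SLC7A5 (-0.08) and SLC3A2 (-0.05) near 0.

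Over both lines together, none of the 10 members passed for NINJ1 against control (4 libraries against 2, line as an additive term), nor did any of the 17617 genes (0.0%). After the GC correction no member passed either, against 1.86% of all tested genes (0.324% higher and 1.53% lower). At an unadjusted p under 0.05 edgeR had 1 member, SLC7A1 (log2 0.67, SE 0.19, adjusted p = 0.368), and 2257 genes; DESeq2 called 256 genes and 0 members. In FPKM, which has no TMM scaling, SLC7A1, SLC1A4 and SLC1A5 were above their line's control in all 4 NINJ1 libraries. The share of all genes that did so was not counted. On log2(FPKM + 1) the median change over all genes in HGC-27 was itself 0.32. Without the HGC-27 control 5 members passed (15.8% of all tested genes) and without the AGS control 9 (64.1%), which are then the differences of 1 line alone. AGS against HGC-27 over both treatments called 0 members with edgeR, against 6.14% of all tested genes (3.27% higher and 2.87% lower), with 3 members at an unadjusted p under 0.05. DESeq2 called 1 member there. After the GC correction SLC43A1 (log2 2.35), SLC7A11 (0.76) and SLC1A4 (0.62) passed, all higher in AGS (edgeR adjusted p = 0.0168, 0.0053 and 0.0424), against 21.9% of all tested genes (10.8% higher and 11.1% lower).

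The promoters of the members were read for the core of the amino acid response element, to which ATF4 binds, because ATF4 is a known regulator of several of them. RefSeq promoters (GRCh38.p14, 250 bases before to 50 after a start site) were matched by symbol for the 9 members other than SLC7A11, 16 promoters in all. The motif searched was TGATGNAA on both strands. It occurred in 1 promoter each of SLC1A4, SLC3A2, SLC38A1, SLC7A1 and SLC1A5, that is 5 of 16, and in 3.617% of 35116 promoters of the same length. The search was prompted by known regulation, so these shares are no test of enrichment. Except for SLC7A1, the promoters with a match belong to start sites inside the annotated gene. The matches are shown in capitals in windows of 30 bases, 5′ to 3′ on the strand of the gene.
SLC1A4 (chr2:64989381-64989410, plus strand): gcggctcccgtTTGCATCAtctccagccgg
SLC3A2 (chr11:62881719-62881748, plus strand): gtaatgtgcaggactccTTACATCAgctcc
SLC38A1 (chr12:46266502-46266531, minus strand): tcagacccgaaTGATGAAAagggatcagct
SLC7A1 (chr13:29595663-29595692, minus strand): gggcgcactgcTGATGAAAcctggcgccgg
SLC1A5 (chr19:46784893-46784922, minus strand): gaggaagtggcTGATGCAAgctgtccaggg
Of the members with a match, in AGS SLC7A1 rose, SLC3A2 fell and the other 3 did not pass before the GC correction. In HGC-27 SLC38A1 was lower and the other 4 higher before it. With the correction SLC7A1 and SLC1A5 were higher in AGS, SLC1A4 and SLC1A5 were higher in HGC-27, and the others did not pass. A part of ATF4 in these changes was not tested. A match describes these letters in this window, and no binding was measured.

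ATF4 targets and other genes of the amino acid response were given from a list of 28, of which 27 were tested. In AGS 3 were higher and 4 lower (6 and 3 with the GC correction), where 5.73% of all tested genes were higher and 9.3% lower (8.5% and 10.2%). In HGC-27 21 were higher and 1 lower (20 and 3 with the GC correction), where 34.0% of all tested genes were higher and 29.1% lower (22.8% and 26.4%). The called genes changed with the correction there. TRIB3 went from log2 1.66 to -0.26 and was then called lower, and CEBPB from 2.65 to -0.13 and did not pass. CEBPG (0.66), VLDLR (0.62) and ASNS (0.75) were called higher only with it. A GC trend remained in HGC-27, with corrected medians of 0.26 at 60% to 65% GC and 0.77 above. The median log2 change of the list was 0.10 in AGS and 1.72 in HGC-27 (0.89 with the GC correction). ATF4 itself, named after its values were seen, was at 109 FPKM in the AGS control and 142 and 164 FPKM in those labelled NINJ1 (log2 0.43, edgeR adjusted p = 0.035, and 0.53 after the GC correction). In HGC-27 it was at 57.5, 142 and 177 FPKM (1.08, edgeR adjusted p = 8.86e-08), but the corrected value was -0.16 and did not pass (edgeR adjusted p = 0.232), so its direction there depended on the correction. The smallest p in AGS belonged to DDIT4 (an mTORC1 inhibitor, log2 -1.27), STC2 (a secreted glycoprotein, 0.68) and CEBPB (a bZIP transcription factor, -0.67), with edgeR adjusted p from 1.57e-06 to 0.00164. The GC correction ended the call of CEBPB (-0.29, edgeR adjusted p = 0.0528). In HGC-27 GDF15 (a stress-induced cytokine), STC2 and DDIT4 led with log2 4.18, 2.36 and 3.38, and with the GC correction they were at 1.92, 1.89 and 1.90. DDIT4 was thus lower in AGS and higher in HGC-27.

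Of 41 other amino acid transporter genes, 22 passed the filter on low counts. In AGS 2 were higher and 2 lower, or 4 of 22 where 15.0% of all tested genes were called. These were the lysosomal carrier SLC36A1 (log2 0.70) and SLC38A7 (0.72), and the taurine carrier SLC6A6 (-0.57) and SLC38A10 (-0.54), with edgeR adjusted p from 0.00141 to 0.0111. The GC correction ended the call of SLC38A10 (-0.23, edgeR adjusted p = 0.147). In HGC-27 6 were higher and 6 lower, where 63.0% of all tested genes were called, and with the GC correction 6 and 5, where 49.2% were. SLC38A10 (2.79) and SLC43A2 (2.77, a relative of SLC43A1) were higher there, at 0.30 (edgeR adjusted p = 0.12) and 1.23 with the correction. SLC7A2, the cationic amino acid carrier CAT2, was lower at log2 -1.35 and -0.74 with the correction, from 119 FPKM in the control to 68.5 and 54.3 FPKM. Its relative SLC7A1 was at 0.83 there and 0.20 with the correction. Among other light chains of SLC3A2, SLC7A6 was at 1.91 to 4.59 FPKM, SLC7A7 and SLC7A8 stayed under 1 FPKM and SLC7A10 was listed at 0.

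The genes whose pattern was closest to SLC7A5 over the 6 libraries were ATP5F1D (a subunit of mitochondrial ATP synthase), COASY (coenzyme A synthesis) and LSM4 (RNA processing), at root mean square distances of 0.0865, 0.0875 and 0.101 log2 CPM among 4906 genes with an FPKM of at least 5 in each library. Their GC content was 63.9%, 59.1% and 59.5%, near that of SLC7A5. Closest to SLC7A11 were CMAS (sialic acid activation), GAS2L3 (a cytoskeletal linker) and RPL22L1 (a ribosomal protein relative), at 0.053, 0.0665 and 0.0713. Their GC content was 44.8%, 34.8% and 42.7%, against 35.4% for SLC7A11. Among the members themselves SLC7A5 and SLC3A2 were 0.263 apart over 6 libraries. There SLC7A1 with SLC1A4 (0.1925) and SLC38A1 with SLC38A2 (0.2492) were closer. Over the 5 libraries other than the HGC-27 control SLC7A5 and SLC3A2 were 0.0362 apart, the smallest distance of any pair of members in those 5.

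Counting limits apply to some members. The strand setting is not given in the sources used here, so reads of a gene and an overlapping gene on the other strand may not be told apart. SLC7A11 shares 865 exonic bases with SLC7A11-AS1 (125 to 375 counts), and SLC6A9 shares 404 with CCDC24 (2 to 179 counts). SLC7A5 has the near-identical copies SLC7A5P1, with 0 to 50 counts, and SLC7A5P2, with 0 counts in all 6 libraries, against 4576 to 25005 counts of SLC7A5.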

How the data were processed

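Polyadenylated RNA of 6 libraries was sequenced after 48 hours with a NEBNext Ultra kit, per the labels' protocols. HISAT2, HTSeq 0.13.5 and the build GRCh38 are named in the submitters' processing notes. The deposited tables hold whole-number read counts and the authors' FPKM (count per gene length and library total) for 51103 genes, per the file headers. The authors' annotation release is not given in the sources used here, and all identifiers were found in GENCODE 29. The 10 members and the gene lists were chosen with earlier results of these data known. Counts were fitted over all genes with edgeR 4.0.16 (R 4.3.3): filterByExpr with a minimum count of 10, TMM scaling, 1 mean per line and treatment (2 residual degrees of freedom) or line plus treatment (3), two-sided quasi-likelihood F tests, and Benjamini-Hochberg adjusted p under 0.05 over 17617 genes. SE is the log2 change over the square root of F. The GC correction fits each library's log2 CPM deviations on longest-transcript GC by lowess (span 0.3) and enters as an offset. Alternatives were DESeq2 1.42.0, its size factors, genes unfiltered or filtered at a mean of 5 FPKM, limma 3.58.1 on log2(FPKM + 1) or log2(FPKM + 0.1) where FPKM was at least 1 in 2 libraries, each library left out, lines as titled, the 4 libraries whose line is undisputed, and a replicate block. Leaving out the HGC-27 control with the GC correction was added after seeing the data. Named genes were all members, NINJ1, and per list the 3 smallest p in AGS and in HGC-27; others named, SLC38A7, ATF4 and the other light chains among them, were chosen after their values were seen. Replicates were no duplicates: the NINJ1 pairs differed by 4.57 (AGS) and 13.8 (HGC-27) chi-square per degree of freedom. The fits were tested on simulated counts.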

Additional observations from a re-analysis of the deposited data

Results flagged for a closer look

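For 7 of the 10 members the test of the difference between AGS and HGC-27 in NINJ1 against control passed (edgeR quasi-likelihood, Benjamini-Hochberg adjusted). Of all tested genes 54.2% passed it (23.9% higher and 30.2% lower), and 35.3% with the GC correction. AGS minus HGC-27 was log2 -2.56 for SLC7A5, -1.84 for SLC3A2, -3.20 for SLC1A5, -3.51 for SLC6A9 and -4.79 for SLC43A1, and 0.94 for SLC7A11 and 0.90 for SLC38A1. With the GC correction the values were -0.42, -0.38, -1.02, -1.63 and -3.21 for the first 5, which passed again, and 0.11 and 0.22 for SLC7A11 and SLC38A1, which did not (edgeR adjusted p = 0.553 and 0.203). The GC dependence of the HGC-27 control moved with these differences, and its part in the corrected values was not tested.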

How the results depend on the processing

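In AGS 5 members passed; 1 did with limma on log2(FPKM + 1) and 1 on log2(FPKM + 0.1), 0 with lines as titled, and 0 to 5 with a library left out. In HGC-27 9 passed and 3 as titled. For the difference between lines 7 passed and 0 as titled. For AGS against HGC-27 in NINJ1 libraries 5 passed, 8 with the GC correction, 8 with it and a replicate block, 8 with it and without the HGC-27 control, 0 as titled and 3 to 7 with a library left out. NINJ1 over both lines gave 0, or 4 with the GC correction and without the HGC-27 control, and 0 to 9 with a library left out. AGS against HGC-27 over both treatments gave 0, or 1 with DESeq2, 3 with the GC correction, 1 in the 4 undisputed libraries, 1 with the correction and a replicate block, 8 with the correction and without the HGC-27 control, and 0 to 5 with a library left out. Calls over all tested genes moved with the setting too. In AGS 15.0% passed, with 950 of 13739 under limma on log2(FPKM + 1) and 793 on log2(FPKM + 0.1). In HGC-27 63.0% passed and 12.2% as titled. For the difference between lines 54.2% did, and in NINJ1 libraries 40.2% (43.8% with the GC correction). Over both lines it was 0.0%, and over both treatments 6.14% (21.9% with the correction). Outside HGC-27 the titles gave 0.0%. Other settings are given without a share. The cause was not tested.

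Directions reversed as follows. With lines as titled, SLC6A9 in AGS was 0.10, SLC7A11 in HGC-27 0.20 and its difference between lines -0.12, and in NINJ1 libraries SLC7A11 was -0.12, SLC1A4 -0.048 and SLC6A9 0.24. With the GC correction SLC7A11 and SLC38A2 in HGC-27 were 0.31 and 0.48, and 0.30 and 0.50 with a replicate block too. The difference between lines for SLC38A2 was -0.65 with the correction and -0.65 with the block too, and that for SLC7A1 0.34 with both. Leaving out a library moved NINJ1 against control over both lines from -0.36 to 2.25 for SLC7A5, -0.36 to 1.53 for SLC3A2, -0.61 to 2.95 for SLC6A9, -0.68 to 1.95 for NINJ1 and -0.35 to 0.54 for SLC7A11. The lowest values were without the HGC-27 control, and for SLC7A11 without the AGS control. For AGS against HGC-27 over both treatments SLC1A5 ran from -0.47 to 1.00 and SLC6A9 from -1.01 to 0.64, lowest without either control. Without the HGC-27 control and with the correction, SLC6A9 (-0.45) and NINJ1 (-0.57) reversed over both lines, and SLC1A5 (-0.36) and SLC6A9 (-0.91) between lines.

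Same-numbered libraries shared only a number (correlation of deviations 0.0084). With the replicate block 4 members passed in AGS, since SLC3A2 did not (edgeR adjusted p = 0.0611), 9 in HGC-27, 8 for the difference between lines and 6 in NINJ1 libraries. Of all 17617 genes 2575 passed with the block in AGS, 10487 in HGC-27 and 9652 for the difference between lines. The median over all genes in HGC-27 was 0.12, and 0.32 with limma on log2(FPKM + 1) and 0.41 on log2(FPKM + 0.1), which apply no TMM. Per-line changes could not be fitted from the 4 undisputed libraries, which leave no residual degrees of freedom. Depth limits SLC43A1 in the HGC-27 control, at 5 counts.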

Other observations

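Genes of amino acid sensing upstream of mTORC1 were given from a list of 35, of which 34 were tested. In AGS 3 were higher and 1 lower: SESN3 (a sestrin, log2 0.61), SEH1L (0.45) and LAMTOR3 (0.54) against CASTOR2 (-0.93), with edgeR adjusted p from 0.00577 to 0.0427. These 4 of 34 compare with 15.0% of all tested genes, and the GC correction ended the call of LAMTOR3 (edgeR adjusted p = 0.0597). In HGC-27 16 were higher and 11 lower, where 63.0% of all tested genes were called, and with the GC correction 5 and 14, where 49.2% were. The smallest p belonged to NPRL3 (2.20), LAMTOR4 (2.47) and KPTN (3.11). Corrected values were 0.18 for NPRL3, which did not pass (edgeR adjusted p = 0.291), 0.75 for LAMTOR4 and 1.17 for KPTN. LARS, the leucyl-tRNA synthetase, was at -1.06 in HGC-27 and -0.47 with the correction. In AGS against HGC-27 within the NINJ1 libraries 1 was higher and 7 lower, where 40.2% of all tested genes were called (20.2% higher and 20.0% lower).

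Other short motifs in the 16 member promoters were counted on both strands and are descriptions only. The E-box CACGTG was in 3 of them and in 7.256% of 35116 promoters, the antioxidant response element core TGACNNNGC in 4 and in 13.347%, and the GC box CCCCGCCC in 8 and in 22.756%.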
